A study of Homo sapiens with 6 samples.

Results

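The genes described here are 10 members of the insulin, PI3K and FOXO circuit, taken by name from the 58219 gene identifiers counted in SNU-449 cells. They are the transcription factors FOXO1, FOXO3 and FOXO4, the insulin receptor INSR, its adaptors IRS1 and IRS2, the PI3K regulatory subunit PIK3R1, the PI3K inhibitor PIK3IP1, the mTOR complex subunit RICTOR and the sestrin SESN3. They were chosen by gene name with the count differences between the groups already known, so those differences are given as a description, without p-values and in support of nothing. Each symbol matched 1 identifier, and each of the 10 genes passed the filter on low counts, with at least 15 reads in every library.

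SNU-449 is an established human hepatocellular carcinoma line. The tested cells stably express Yes T348I (3 libraries), a form of the tyrosine kinase Yes changed at the gatekeeper residue of its drug pocket, and their controls stably express wild-type Yes (Yes WT, 3 libraries). Both groups had received 100 nM dasatinib, a drug that blocks ABL and the SRC family, to which Yes belongs, and no cells without the drug were analysed here. The promoter behind the introduced kinase, whether a line is 1 clone, and whether replicates were grown separately are not stated in the labels. The errors and p-values below therefore cover library-to-library spread alone, and that spread may be technical.

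Insulin and insulin-like growth factors act through receptor tyrosine kinases that phosphorylate IRS adaptors, which recruit PI3K and so activate the kinase AKT. AKT phosphorylates FOXO factors, which then leave the nucleus, and when AKT is low the FOXO factors return and raise the transcription of genes such as INSR, IRS2, SESN3 and RICTOR. This is a feedback loop, since more receptor and adaptor restores sensitivity to insulin, and in hepatocytes the same factors drive gluconeogenic genes during fasting. RNA counts measure neither FOXO phosphorylation nor its place in the cell.

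FOXO factors bind DNA through a forkhead domain that prefers the core GTAAACA, the related ATAAACA, and the core CAAAACA of insulin response elements. These 3 motifs were searched on both strands in the RefSeq promoter table (GRCh38.p14), which holds 250 bases before and 50 after each start, and in which all 10 genes were found with 17 promoters between them. The places where a motif was read, in PIK3IP1, FOXO4, FOXO3 and IRS2, are shown with the motif in capitals and the strand of the gene. FOXO1 held none. FOXO3 has 4 of the promoters and PIK3IP1 has 2, with a motif in 1 of each.

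PIK3IP1, TGTTTAC at position 17 after the start at 31292488, chr22:31292455-31292483, minus strand: taaagagaggcTGTTTACcagaacagcat

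FOXO4, GTAAACA at position 24 after the start at 71095851, chrX:71095863-71095891, plus strand: cccggcgagtgGTAAACAgagacgtcagg

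FOXO3, ATAAACA at position -234 from the start at 108560917, chr6:108560672-108560700, plus strand: ccgagcgaaacATAAACAaacgcacgcac

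IRS2, TGTTTTG at position -40 from the start at 109786583, chr13:109786606-109786634, minus strand: gagtcacatgtTGTTTTGctcttcttagt

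Upstream region of IRS2, chr13:109786584-109786833, minus strand: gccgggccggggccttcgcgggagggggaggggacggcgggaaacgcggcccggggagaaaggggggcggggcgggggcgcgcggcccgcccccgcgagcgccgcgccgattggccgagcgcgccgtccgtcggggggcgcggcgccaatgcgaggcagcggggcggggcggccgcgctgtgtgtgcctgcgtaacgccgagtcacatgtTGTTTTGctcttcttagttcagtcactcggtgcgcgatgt

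TGTTTAC is the reverse complement of GTAAACA, and TGTTTTG that of CAAAACA. Of the 17 promoters, 2 held GTAAACA (PIK3IP1 and FOXO4), 1 held ATAAACA (FOXO3) and 1 held CAAAACA (IRS2). Among all 35116 promoters of the table, 3.42% held GTAAACA, 4.24% held ATAAACA and 4.92% held CAAAACA. The other genes had no match in these windows, which says only that the letters are not there. A match is a string of letters and not a measured binding site. The starts are those of RefSeq and can differ from the gene positions given below, which are from GENCODE release 29. For FOXO4 the RefSeq start at 71095851 lies before the GENCODE gene, which begins at 71096197.

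Of the 10 genes, 9 were lower in Yes T348I than in Yes WT and 1, IRS1, was at a similar level. The 9 were called lower by edgeR's quasi-likelihood test at an adjusted p under 0.05, a call that 55.3% of all 14723 genes tested received in either direction and 27.3% received in the lower direction. PIK3IP1, FOXO4, SESN3 and FOXO1 were at least 2-fold lower, a size that 4.08% of all genes reached in either direction and 3.21% in that direction. In the 9 genes the libraries of the groups did not overlap, which held in the lower direction for 29.7% of all genes. The median log2 fold change over the 10 was -0.51, and over all genes tested it was -0.01. Since the genes were picked with this contrast known, nothing is read from these shares. In bulk RNA, fewer cells that express a gene and less RNA per cell cannot be told apart.

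**Figure D1:**
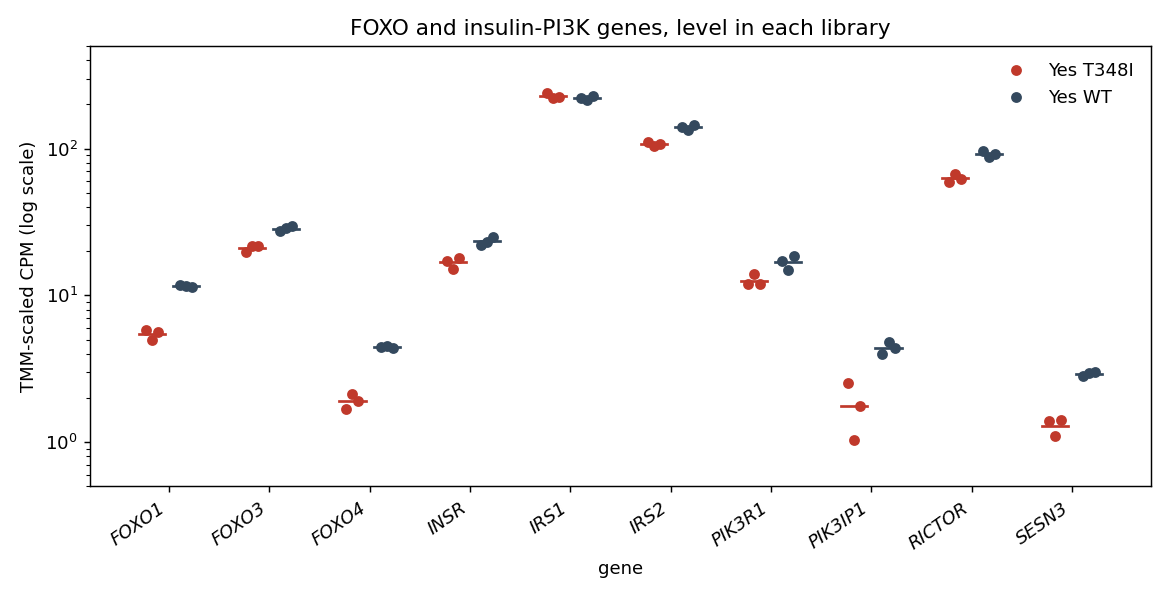
TMM-scaled CPM (log axis) of the 10 genes in each library, Yes T348I in red and Yes WT in dark blue, with the 3 libraries of a group as points and their mean as a line. The points of the groups are apart for every gene but IRS1, where the Yes T348I mean was 228 CPM and the Yes WT mean 221 CPM.

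The 3 FOXO genes differed in how far they were lower. FOXO1 (ENSG00000150907.7, chromosome 13, 40469953 to 40666597, minus strand), the main FOXO of insulin action in liver, had 5.85, 4.94 and 5.64 CPM (counts scaled by library size and TMM factor) in Yes T348I libraries 1 to 3, against 11.8, 11.6 and 11.4 CPM in Yes WT libraries 1 to 3. All values of Yes T348I lay under those of Yes WT, with a log2 fold change of -1.08 (SE 0.11). FOXO4 (ENSG00000184481.16, chromosome X, 71096197 to 71103535, plus strand), a smaller relative under the same control by AKT, had 1.69, 2.13 and 1.90 CPM in Yes T348I, against 4.46, 4.50 and 4.41 CPM in Yes WT. Its groups did not overlap either, with a log2 fold change of -1.24 (SE 0.18), and these levels rest on 27 to 33 reads per library in Yes T348I and 65 to 73 in Yes WT. FOXO3 (ENSG00000118689.14, chromosome 6, 108559835 to 108684774, plus strand), a factor of stress resistance and cell death genes, had 19.7, 21.6 and 21.8 CPM in Yes T348I, against 27.3, 28.6 and 29.6 CPM in Yes WT. The groups were apart here as well, at a smaller log2 fold change of -0.44 (SE 0.07).

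The balance among the FOXO transcripts differed between the groups. Per kilobase of exon, the 3 genes together stood at 4.16 ± 0.15 CPM per kb (SD, n = 3) in Yes T348I and 6.85 ± 0.11 CPM per kb (SD, n = 3) in Yes WT. FOXO3 made up 65.5% ± 1.23 (SD, n = 3) of this sum in Yes T348I and 53.9% ± 1.26 (SD, n = 3) in Yes WT. FOXO1 made up 21.2% ± 2.35 in Yes T348I and 27.2% ± 0.86 in Yes WT, and FOXO4 13.3% ± 1.22 in Yes T348I and 18.9% ± 0.41 in Yes WT. In each library FOXO3 was the most abundant of the 3 per length, then FOXO1, then FOXO4. FOXO6, the remaining family member, had at most 5 reads in any library and was not tested. FOXO3 has a close copy, FOXO3B, counted at 27 to 38 reads per library, and reads that fit both places equally were not counted for either. FOXO1 shares 269 of its 6232 exon bases with LINC00598 on the same strand in GENCODE release 29.

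The insulin receptor and 1 of its adaptors were lower, while the other adaptor was not. INSR (ENSG00000171105.13, chromosome 19, 7112255 to 7294034, minus strand), the receptor itself, had 17.3, 15.2 and 18.0 CPM in Yes T348I, against 22.1, 23.1 and 25.01 CPM in Yes WT. Every Yes T348I library was below every Yes WT library, with a log2 fold change of -0.47 (SE 0.08). IRS2 (ENSG00000185950.8, chromosome 13, 109752698 to 109786568, minus strand), the adaptor that FOXO1 raises in fasting liver, had 111, 105 and 108 CPM in Yes T348I, against 139, 135 and 145 CPM in Yes WT. It too was separated, by a log2 fold change of -0.37 (SE 0.04) on at least 1525 reads in each library. IRS2 is the gene whose upstream region, printed above, holds TGTTTTG close to the start. Whether that motif bears on its level was not tested.

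IRS1 (ENSG00000169047.5, chromosome 2, 226731317 to 226799759, minus strand), the adaptor best known from muscle and fat, had 238, 222 and 226 CPM in Yes T348I, against 220.3, 214 and 229 CPM in Yes WT. The ranges overlapped, with a log2 fold change of 0.05 (SE 0.03). The per-length ratio of IRS1 to IRS2 was 1.73 ± 0.020 (SD, n = 3) in Yes T348I and 1.30 ± 0.0042 (SD, n = 3) in Yes WT, with the lowest Yes T348I library at 1.71 and the highest Yes WT library at 1.30. The 2 adaptors summed to 36.2 ± 1.23 CPM per kb in Yes T348I and 39.4 ± 1.37 CPM per kb in Yes WT (SD, n = 3 each). At the IRS1 locus 7.63% of the reads on either strand lay on the opposite strand, the highest of the 10 genes, where the others ranged from 0.41% (RICTOR) to 3.02% (PIK3IP1).

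**Figure D2:**
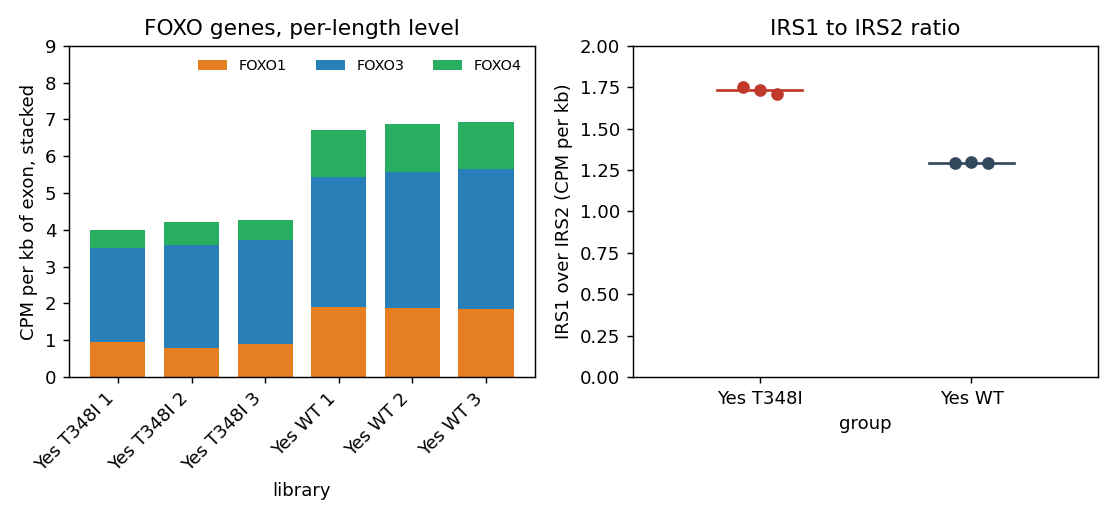
Left, CPM per kb of exon of FOXO1, FOXO3 and FOXO4 stacked for each library, Yes T348I libraries before Yes WT libraries. Right, the ratio of IRS1 to IRS2 on the same per-length scale, with a point per library and a line at the mean. The FOXO sum averaged 4.16 CPM per kb in Yes T348I and 6.85 in Yes WT, and the ratio 1.73 in Yes T348I and 1.30 in Yes WT.

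The PI3K members were lower to different degrees. PIK3R1 (ENSG00000145675.14, chromosome 5, 68215720 to 68301821, plus strand), which encodes the regulatory subunits p85α, p55α and p50α that hold and recruit the catalytic subunit, had 12.0, 13.9 and 11.9 CPM in Yes T348I, against 17.2, 14.9 and 18.5 CPM in Yes WT. The groups were only just apart, since Yes T348I library 2 lay close below Yes WT library 2, and the log2 fold change was -0.42 (SE 0.09). PIK3IP1 (ENSG00000100100.12, chromosome 22, 31281593 to 31292534, minus strand), a transmembrane protein that binds the catalytic subunit and restrains PI3K, had 2.51, 1.03 and 1.76 CPM in Yes T348I, against 3.97, 4.78 and 4.41 CPM in Yes WT. These rest on 49, 15 and 25 reads in Yes T348I and 65, 69 and 66 reads in Yes WT. All values of Yes T348I were the lower ones, with a log2 fold change of -1.25 (SE 0.20), close to that of FOXO4, and a coefficient of variation of 42.0% in Yes T348I and 9.17% in Yes WT. The log2 fold change of PIK3IP1 was -1.64 without Yes T348I library 1 and -0.99, less than 2-fold, without Yes T348I library 2.

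The mTOR members RICTOR and SESN3 were both lower. RICTOR (ENSG00000164327.12, chromosome 5, 38937919 to 39074408, minus strand) defines mTOR complex 2, which phosphorylates AKT, and had 59.5, 67.1 and 62.0 CPM in Yes T348I, against 96.2, 88.2 and 91.7 CPM in Yes WT. The groups stood well apart, with a log2 fold change of -0.56 (SE 0.05) on 880 to 1160 reads per library in Yes T348I and 1275 to 1574 in Yes WT. SESN3 (ENSG00000149212.11, chromosome 11, 95165513 to 95232541, minus strand), a stress protein that restrains mTOR complex 1, had 1.38, 1.10 and 1.41 CPM in Yes T348I, against 2.81, 2.98 and 3.01 CPM in Yes WT. The ranges were separate, at a log2 fold change of -1.16 (SE 0.22) that rests on 16 to 27 reads per library in Yes T348I and 43 to 46 in Yes WT.

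**Figure D3:**
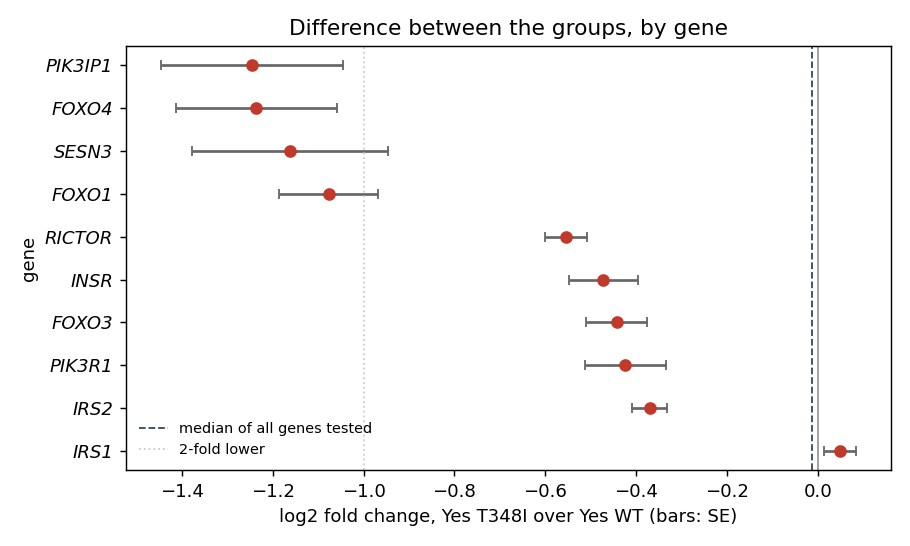
Log2 fold change of each of the 10 genes, Yes T348I over Yes WT, with its standard error from the edgeR fit, the median of all genes tested (dashed) and a 2-fold lower level (dotted). FOXO1, FOXO4, PIK3IP1 and SESN3 lie between -1.25 and -1.08, RICTOR, INSR, FOXO3, PIK3R1 and IRS2 between -0.56 and -0.37, and IRS1 at 0.05.

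Per exon length, the order of the levels in Yes T348I was IRS1 (23.0 CPM per kb), IRS2 (13.3), RICTOR (4.64), FOXO3 (2.73), INSR (1.61), PIK3R1 (1.17), FOXO1 (0.878), FOXO4 (0.553), PIK3IP1 (0.465) and SESN3 (0.123). FOXO4 and PIK3IP1 were the neighbours whose libraries overlapped there. In Yes WT the order was the same but for FOXO1 (1.86 CPM per kb), which stood above PIK3R1 (1.56). No neighbours overlapped in Yes WT. The exon length counts all annotated exons of a gene, so a gene whose cells use a short transcript is placed too low.

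Within a group, the order of the libraries differed from gene to gene. In Yes T348I, library 2 held the lowest value of 6 of the 10 genes (FOXO1, IRS1, IRS2, INSR, PIK3IP1 and SESN3) and the highest of 3 (FOXO4, PIK3R1 and RICTOR). In Yes WT, library 3 held the highest value of 6 genes and the lowest of 2. Centred on each gene's mean, the average log2 level of the 10 genes was -0.28, -0.38 and -0.29 in Yes T348I libraries 1 to 3 and 0.30, 0.30 and 0.36 in Yes WT libraries 1 to 3. The genes outside the 10 with the profile nearest to this average over the 6 libraries were SLC35E2B, MUSK, CLSTN3, SLC20A1 and SH2B3. Their root mean square distances were 0.017 to 0.027 on the log2 scale. The average carries mainly the group difference, so nearness to it shows little beyond a similar log2 fold change (-0.69 to -0.60 in these genes). SH2B3, an adaptor that damps cytokine receptor signalling, had 62.3 ± 2.30 CPM in Yes T348I and 94.2 ± 1.51 CPM in Yes WT (SD, n = 3 each). SLC20A1, a phosphate transporter, had 288 ± 9.12 CPM in Yes T348I and 455 ± 5.07 CPM in Yes WT.

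Genes that FOXO factors are known to raise were mostly lower in Yes T348I. This list of 32 was drawn from general knowledge with earlier results of these data in view, and other factors such as p53 also act on several of its genes. Of the 28 tested, 3 rose and 21 fell at an adjusted p under 0.05 over all genes, and 4 did not pass. Here and below, rose and fell mean higher and lower in Yes T348I than in Yes WT. Without untreated cells, which group changed cannot be told. The share that fell was 75.0%, where 27.3% of all genes tested did, and the median log2 fold change was -0.61, against -0.01 over all genes. Of the 21, 8 fell at least 2-fold. IGFBP1, a secreted binding protein of insulin-like growth factors and a classic insulin-repressed gene of liver, was at 136 ± 6.06 CPM in Yes T348I and 355 ± 2.39 CPM in Yes WT (SD, n = 3 each; log2 fold change -1.38, SE 0.03, edgeR adjusted p = 8.19e-31). TP53INP1, a stress protein that p53 also raises, was at 21.8 ± 0.95 CPM in Yes T348I and 66.0 ± 2.07 CPM in Yes WT (log2 fold change -1.59, SE 0.06, edgeR adjusted p = 5.79e-26). KLHL24, a ubiquitin ligase adaptor, fell to 20.7 ± 2.24 CPM in Yes T348I, against 67.5 ± 4.14 CPM in Yes WT (edgeR adjusted p = 3.25e-25). DEPP1, an autophagy regulator, fell to 10.8 ± 1.004 CPM in Yes T348I, against 34.8 ± 0.66 CPM in Yes WT (edgeR adjusted p = 1.98e-22).

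The exceptions, named after their values were seen, were GADD45A, EIF4EBP1 and BNIP3, which rose. GADD45A, a DNA damage and growth arrest gene, was at 46.1 ± 3.30 CPM in Yes T348I and 21.9 ± 1.64 CPM in Yes WT (log2 fold change 1.07, SE 0.06). EIF4EBP1, which restrains cap-dependent translation, had a log2 fold change of 0.27 (SE 0.04), and BNIP3, a mitophagy receptor, one of 0.20. PIK3CA, TRIB1, PPARGC1A and KLF2 did not pass, with log2 fold changes of -0.03 (SE 0.06), -0.03 (SE 0.04), -0.04 (SE 0.34) and 0.21 (SE 0.18). PPARGC1A rests on 9 to 15 reads per library and KLF2 on 37 to 59, so a moderate difference in either could be missed. The gluconeogenic genes PCK1 and G6PC1, together with FASLG and TRIM63, had at most 2 reads in any library and were not tested. Of the 32 genes, 3 stand in another list here as well.

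**Figure D4:**
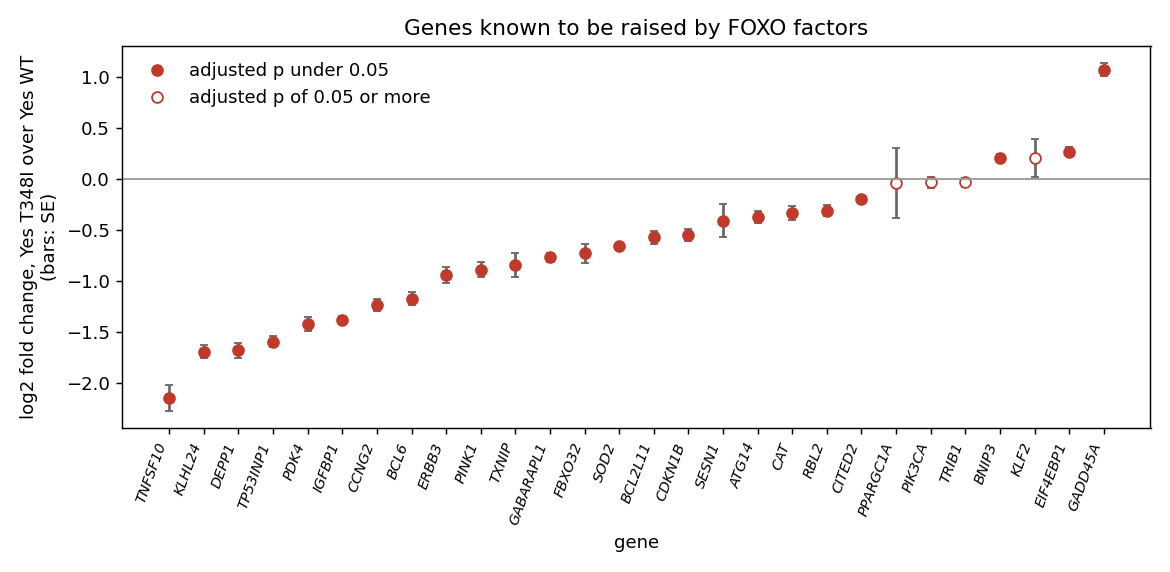
Log2 fold change (Yes T348I over Yes WT, bars: SE) of the 28 tested genes that FOXO factors are known to raise, in order, filled where the edgeR adjusted p was under 0.05. The 21 filled points below 0 contrast with 3 above it, of which GADD45A stands at 1.07.

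Other parts of insulin signalling did not share 1 direction. Of 22 tested genes for insulin and IGF receptors, adaptors and their attenuators, 4 rose and 12 fell, with a median log2 fold change of -0.18. These are 18.2% higher and 54.5% lower, where 28% of all genes were higher and 27.3% lower. IGF2R, which clears IGF2 and sorts lysosomal enzymes, fell to 224 ± 5.81 CPM in Yes T348I, against 338 ± 12.7 CPM in Yes WT (edgeR adjusted p = 1.33e-18). GRB7, an SH2 adaptor, fell to 12.4 ± 1.77 CPM in Yes T348I, against 24.8 ± 0.58 CPM in Yes WT (edgeR adjusted p = 1.39e-13), and SH2B3 fell as given above (log2 fold change -0.60, edgeR adjusted p = 2.03e-15). IGF1R, the closest relative of INSR, fell by 0.27 on the log2 scale (SE 0.04, edgeR adjusted p = 3.37e-07). The 4 that rose, listed after their values were seen, were PTPN1, PTPRF, SOCS2 and SOCS3. PTPN1, the phosphatase PTP1B that acts on the insulin receptor, was at 215 ± 3.89 CPM in Yes T348I and 162 ± 7.13 CPM in Yes WT (log2 fold change 0.41, SE 0.04, edgeR adjusted p = 4.99e-13).

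The PI3K and AKT genes were split. Of 26 tested, 5 rose and 6 fell, which is 42.3% called where 55.3% of all genes were, and the median log2 fold change was -0.0014. PIK3C2B, a class II PI3K, fell to 21.7 ± 2.51 CPM in Yes T348I, against 34.6 ± 2.26 CPM in Yes WT (edgeR adjusted p = 1.13e-10). PIK3CD, a class I catalytic subunit, rose (log2 fold change 0.36, SE 0.06), as did PHLPP2, a phosphatase of AKT (0.35, SE 0.06). The catalytic subunit PIK3CA was at 36.8 CPM in Yes T348I and 37.5 CPM in Yes WT, beside the lower level of its regulatory partner PIK3R1. PIK3R3, another regulatory subunit, was at 13.9 CPM in Yes T348I and 15.3 CPM in Yes WT (log2 fold change -0.14, edgeR adjusted p = 0.13). PIK3R2 had at most 3 reads in any library, and 3947 of its 4524 exon bases are shared with another annotated gene on the same strand, so its level cannot be read here.

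Around RICTOR and SESN3 the partner genes went in both directions. Of 23 tested genes of the mTOR complexes, TSC and S6 kinases, 9 rose and 4 fell, but 9 rose and 8 fell with upper quartile scaling and 8 rose and 7 fell with library size only. The share called was 56.5%, near the 55.3% of all genes. MAPKAP1, which encodes the mTOR complex 2 subunit SIN1, was at 136 ± 1.596 CPM in Yes T348I and 101 ± 0.10 CPM in Yes WT (log2 fold change 0.43, SE 0.04, edgeR adjusted p = 5.18e-13). PRR5L, which binds that complex too, rose too (log2 fold change 0.66, SE 0.06), while MTOR and MLST8 did not pass, at -0.02 and -0.12. SGK1, a substrate of mTOR complex 2 that phosphorylates FOXO3, rose to 142 ± 4.05 CPM in Yes T348I, against 81.9 ± 0.30 CPM in Yes WT (log2 fold change 0.79, SE 0.04, edgeR adjusted p = 6.83e-21). EIF4E, the cap-binding protein, rose by 0.57 (SE 0.05). The 4 that fell, named after their values were seen, were TSC1 and TSC2, which restrain mTOR complex 1, the mTOR inhibitor DEPTOR and the kinase SGK2. DEPTOR was at 0.716 CPM in Yes T348I and 2.69 CPM in Yes WT, on 9 to 13 reads per library in Yes T348I and 32 to 51 in Yes WT.

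Of 27 tested genes for sestrins, GATOR complexes and Rag GTPases, 3 rose and 12 fell, with a median log2 fold change of -0.06. The share called was 55.6%, near the 55.3% of all genes, and 44.4% fell where 27.3% of all genes did. The sestrins differed among themselves: SESN1 was at 3.16 CPM in Yes T348I and 4.25 CPM in Yes WT (log2 fold change -0.41, edgeR adjusted p = 0.029), and SESN2 rose, with 18.9 CPM in Yes T348I and 14.5 CPM in Yes WT (0.40, edgeR adjusted p = 6.74e-05), beside the lower SESN3. FLCN, folliculin, and RRAGA, a Rag GTPase, fell as well, with log2 fold changes of -0.60 for FLCN (SE 0.06) and -0.38 for RRAGA (SE 0.04). SEH1L and MIOS, parts of GATOR2, rose, SEH1L with a log2 fold change of 0.55 (SE 0.05) and MIOS with 0.49 (SE 0.06).

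Regulators and partners of FOXO proteins were more often higher than lower. Of 31 tested, 16 rose and 6 fell, against 28% of all genes higher and 27.3% lower, with a median log2 fold change of 0.12. YWHAH, one of the 14-3-3 proteins that hold phosphorylated FOXO in the cytoplasm, was at 207 ± 1.97 CPM in Yes T348I and 149 ± 1.77 CPM in Yes WT (log2 fold change 0.47, SE 0.03, edgeR adjusted p = 2.76e-15). PRMT1, an arginine methyltransferase that modifies FOXO1, rose by 0.34 (SE 0.04). DYRK1B, a kinase that phosphorylates FOXO1, fell to 10.2 ± 0.68 CPM in Yes T348I, against 25.5 ± 1.37 CPM in Yes WT (edgeR adjusted p = 1.13e-17), and MDM2, a ubiquitin ligase that p53 raises, fell by 0.41 on the log2 scale (SE 0.05).

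**Figure D5:**
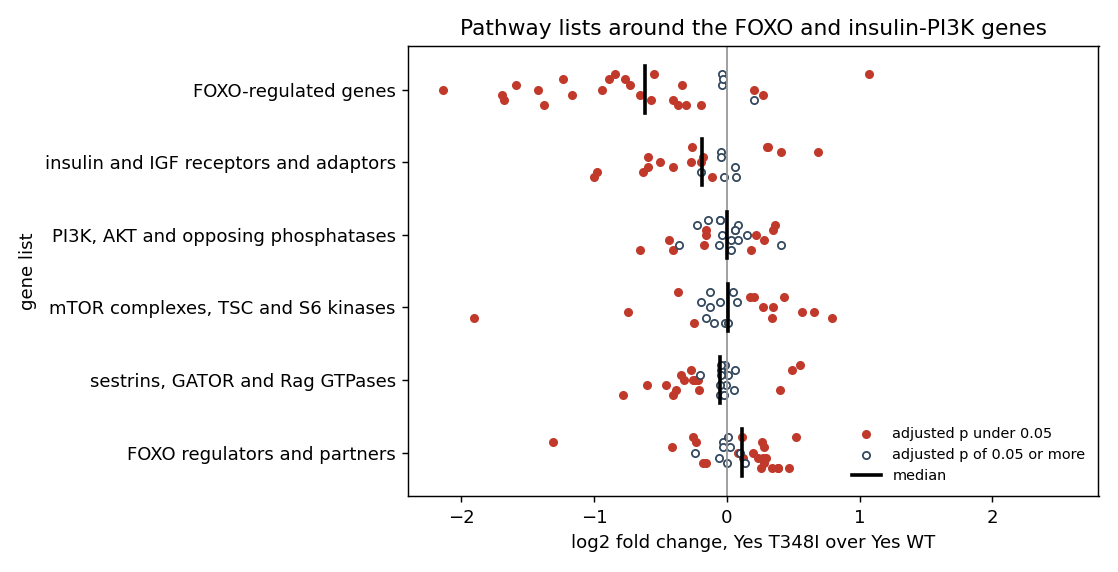
Log2 fold change (Yes T348I over Yes WT) of the tested genes of 6 pathway lists, a point per gene, filled where the edgeR adjusted p was under 0.05, with the list median as a black line. The median was -0.61 for FOXO-regulated genes, -0.18 for insulin and IGF receptors and adaptors and 0.12 for FOXO regulators and partners, and lay between -0.06 and 0.01 for the other lists.

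The libraries held 14392286 to 19608763 gene counts in Yes T348I and 14360137 to 16117573 in Yes WT. YES1 itself had 382 to 435 CPM in Yes T348I and 357 to 368 CPM in Yes WT, reads that can come from the native and the introduced gene. Of 18 hepatocyte markers 11 had too few reads to be tested, among them ALB with at most 10 and HNF4A with at most 5, and APOC3 and HP were at 0, so the liver label rests on few of its defining genes. Their summed level was 96.2 to 102 CPM in Yes T348I and 199 to 210 CPM in Yes WT, with FGB, FGG and FGA the most abundant. Of 18 markers of leukocytes, endothelium, stellate cells, fibroblasts and cholangiocytes 13 were not tested, with CD3E among those at 0. Their sum of 866 to 945 CPM in Yes T348I and 528 to 569 CPM in Yes WT was led by KRT7, SOX9 and RGS5, and 3 of the 5 tested were higher and 1 lower. Reads on no counted exon made up 6.37% to 6.86% of unique reads in Yes T348I and 7.40% to 7.87% in Yes WT. The levels of 7 polyadenylated nuclear RNAs summed to 1187 to 1328 CPM in Yes T348I and 2102 to 2411 CPM in Yes WT. Of the 7, 5 were called lower and 1 higher. Beside these calls and those of the markers, 27.3% of all genes tested were called lower and 28% higher. The hepatocyte sum, the reads on no exon and the nuclear RNAs were lower in Yes T348I, as the 9 genes were, the other marker sum was higher, and the part of these measures in the results was not tested.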

How the data were processed

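Polyadenylated RNA of 6 libraries was sequenced with a strand-keeping kit, per the labels. Each library has a deposited table of unnormalized read counts for every gene. GRCh38, STAR 2.5.1b, Trimmomatic 0.35 and CASAVA 1.8.2 appear, without roles, in the submitters' processing notes, and no source used here gives the annotation release. Counts of the reverse strand were taken, as the forward strand held 6.13% to 6.59% as many. The 4 lines on unplaced, multiply placed, exon-free and ambiguous reads entered neither totals nor tests.

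The gene name table gave symbols for 41844 of 58219 identifiers, and 57881 were found in GENCODE release 29, the source of positions and exon lengths. In R 4.3.3, edgeR 4.0.16 kept 14723 genes (filterByExpr, minimum count 10), scaled libraries by TMM and compared Yes T348I with Yes WT by a quasi-likelihood test without covariates, with Benjamini-Hochberg adjustment over all genes and a threshold of 0.05. Fold changes put Yes T348I over Yes WT, CPM values are TMM-scaled, and the SE is the log2 fold change over the root of F. Replicates differed by more than counting noise (chi-square per degree of freedom 1.48 to 5.19). Their spread was small, with a common biological coefficient of variation of 2.83% in the edgeR fit. The test was also run on counts simulated with the spread of these libraries. That run cannot show whether the replicates are technical, and no result here rests on it. For each list, up to 4 genes with the lowest adjusted p are named, except where one is not reported here; others are named for a role, a low count of calls or a failed test. The profile search took genes of at least 5 CPM. The 13 alternatives were DESeq2 size factors, upper quartile factors, library size only, no low-count filter, the DESeq2 1.42.0 Wald test, unstranded counts, the replicate number as a block, and leaving out each library. The 10 genes, the lists and the motifs were chosen with earlier results of these data, or the sequences, known.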

Additional observations from a re-analysis of the deposited data

How the results depend on the processing

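Under each of the 13 alternatives, 9 of the 10 genes were called lower and IRS1 was not called. The alternatives were other scalings, no low-count filter, the DESeq2 Wald test, unstranded counts, the replicate block and each library left out. In the main fit 27.3% of all genes tested were called lower. The 10 genes were picked with this contrast known, so nothing is read from these calls. Leaving out 1 library moved FOXO1 between -1.13 and -1.01, FOXO4 between -1.32 and -1.13, SESN3 between -1.21 and -1.06 and PIK3IP1 between -1.64 and -0.99 on the log2 scale. With the replicate number as a block, 3 FOXO-regulated genes rose and 21 fell as without it. The block changed no call of the 10 genes. Same-numbered libraries did not deviate together from their group means (correlations of -0.04, 0.00 and -0.02). This cannot show whether same-numbered libraries were grown or prepared together.

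The median log2 fold change of FOXO-regulated genes was -0.65 both under upper quartile factors and under library size alone (-0.654 and -0.651), and -0.53 without the low-count filter, and -0.64 to -0.61 with 1 library left out. For insulin and IGF receptors and adaptors these same scalings both gave -0.22 (-0.225 and -0.222), with -0.14 for unstranded counts and -0.21 to -0.14 with 1 library left out. For PI3K and AKT genes the upper quartile gave -0.042 and library size alone -0.039, with -0.028 to 0.038 with 1 library left out, and so has no firm sign. The mTOR genes that fell numbered 8 by upper quartile and 7 by library size alone. Without the low-count filter 200 of 29606 genes tested were called at least 2-fold higher, against 129 of 14723 with it. FASLG, PCK1, G6PC1 and TRIM63, with at most 2 reads in any library, then entered the FOXO-regulated genes. The median log2 fold change over all genes tested was -0.013 in the main fit, -0.053 under upper quartile factors and -0.050 under library size alone. Without the low-count filter it was -0.040. The cause of the differences between alternatives was not tested. FOXO4, PIK3IP1 and SESN3 rest on 15 to 73 reads per library.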
